A study of Mus musculus with 6 samples.

Results

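The guanylate-binding proteins (GBP) and the immunity-related GTPases (IRG) are 2 families of interferon-inducible GTPases, and their transcripts were compared between an omega-3-resistant and an omega-3-sensitive mouse colorectal cancer line. Members were chosen by name: every probe whose array name was GBP1 to GBP6, IIGP1, IIGP2, IGTP or IRGM1 was taken, which gave 17 probes of 10 genes among 45281 probes and 30854 names on the array. MC38 cells, sensitive to eicosapentaenoic acid (EPA), were represented by 3 arrays, and MC38r cells, resistant after continuous exposure to EPA with a 6-fold higher IC50, by 3 arrays. Both lines were grown alike, in RPMI with foetal calf serum to 70% confluence, and their RNA, with no agent in the culture named by the labels, was hybridized to Illumina MouseWG-6 v2.0 bead arrays. MC38r stands for resistance through 1 derived line, so a difference tied to resistance and any other difference between the lines cannot be told apart.

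GBP and IRG proteins assemble on membranes, above all on the vacuoles and surfaces of intracellular bacteria and protozoa, and are among the most strongly induced proteins of cells exposed to interferon. Interferon gamma acts through gamma-activated sites in the promoters of its targets, and it also induces IRF1. Type I interferons act through a complex that contains STAT2 and IRF9 and binds the interferon-stimulated response element. GBP and IRG genes answer both kinds of interferon and are best known as targets of interferon gamma. Within the IRG family, Irgm1, Irgm2 and Igtp (also called Irgm3) are regulators that keep the other members inactive on the cell's own membranes, whereas Iigp1 (Irga6), Tgtp (Irgb6) and Irgb10 are effectors that coat vacuoles of pathogens.

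Array names are older than current symbols. In the RefSeq gene table used here GBP1 is Gbp2b and IIGP2 is Irgm2, and the other 8 names are unchanged. Along chromosome 3 the table orders Gbp5, Gbp7, Gbp3, Gbp2b and Gbp2. Gbp4 and Gbp6 lie on chromosome 5, and Irgm1, Igtp and Irgm2 on chromosome 11. The families hold closely related copies and the arrays' probe sequences were not used here, so a probe may read more than 1 copy.

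The stretches just before the annotated transcript starts are shown because members that rose and members that did not could be compared for the same response elements. Windows from 250 bases before to 50 bases after each start were searched on both strands for the core of the interferon-stimulated response element, which reads GAAA, any pair of bases and GAAA again (TTTC, any pair and TTTC on the other strand), and for the gamma-activated site TTCNNNGAA, which reads the same on both strands. The sequences are from RefSeq (GRCm38.p6), 5′ to 3′ on the strand of the gene, cover the 180 bases before the start, and carry matches in capitals. The search covered 7 of the 10 genes.
Irgm2 (chr11:58214797-58214976, plus strand): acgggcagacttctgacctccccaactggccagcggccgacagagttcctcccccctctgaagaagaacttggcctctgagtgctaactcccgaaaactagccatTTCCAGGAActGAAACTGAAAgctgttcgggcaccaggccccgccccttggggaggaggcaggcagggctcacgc
Igtp (chr11:58199376-58199555, plus strand): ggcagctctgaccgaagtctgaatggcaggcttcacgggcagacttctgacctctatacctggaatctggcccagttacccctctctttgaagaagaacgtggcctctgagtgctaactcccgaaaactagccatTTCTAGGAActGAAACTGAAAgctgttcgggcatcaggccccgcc
Irgm1 (chr11:48871421-48871600, minus strand): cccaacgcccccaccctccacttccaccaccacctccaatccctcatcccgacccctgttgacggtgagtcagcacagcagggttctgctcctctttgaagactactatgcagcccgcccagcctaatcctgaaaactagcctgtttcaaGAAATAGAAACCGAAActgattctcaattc
Gbp3 (chr3:142559864-142560043, plus strand, the first of its 2 annotated starts): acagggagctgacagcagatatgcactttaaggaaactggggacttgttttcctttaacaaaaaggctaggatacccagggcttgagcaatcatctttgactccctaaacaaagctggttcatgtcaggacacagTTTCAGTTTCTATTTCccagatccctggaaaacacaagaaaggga
Gbp2b (chr3:142594667-142594846, plus strand): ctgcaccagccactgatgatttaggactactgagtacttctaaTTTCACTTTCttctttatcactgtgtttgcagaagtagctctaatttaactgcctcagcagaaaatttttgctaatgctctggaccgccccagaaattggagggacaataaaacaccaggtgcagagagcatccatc
Gbp2 (chr3:142620483-142620662, plus strand): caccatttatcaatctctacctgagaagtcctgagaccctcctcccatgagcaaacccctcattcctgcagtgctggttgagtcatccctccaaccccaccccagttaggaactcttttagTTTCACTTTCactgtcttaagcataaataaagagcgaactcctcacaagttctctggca
Gbp5 (chr3:142496754-142496933, plus strand): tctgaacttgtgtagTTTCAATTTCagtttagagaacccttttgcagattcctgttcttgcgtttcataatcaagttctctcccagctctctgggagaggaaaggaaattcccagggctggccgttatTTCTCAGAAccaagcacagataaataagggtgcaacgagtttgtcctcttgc

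All 7 genes searched had at least 1 match to the response element core, which 3.44% of 32851 windows of the same length hold. The second start of Gbp3 had none. Gamma-activated sites, found in 8.3% of all windows, were matched in 3 of the 7 genes: Irgm2 and Igtp had 1 each, next to the response element core, and Gbp5 had 2. The Gbp5 match at -245 to -237 lies before the stretch shown. The windows of Irgm2 and Igtp share a run of 61 identical bases. Matches overlapped each other in Gbp3 and in Irgm1. Gbp4, Gbp6 and Iigp1 were not searched, so Gbp5 was the only member without a kept probe whose window was examined. A match describes letters and does not show that a factor binds there.

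**Figure D1:**
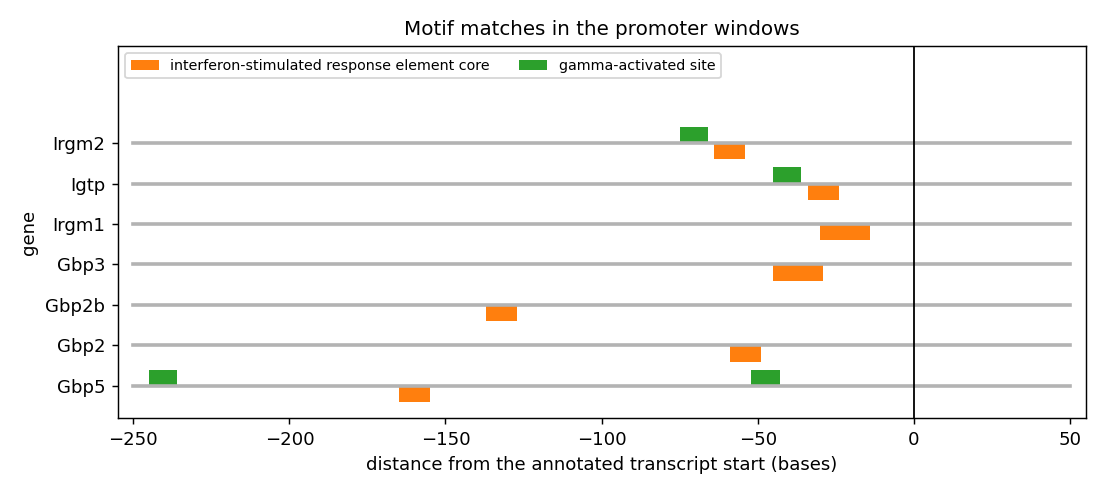
Matches to the interferon-stimulated response element core (orange) and the gamma-activated site (green) in the promoter windows of 7 genes, by distance in bases from the annotated transcript start. Every gene carries an orange match before the start, and Irgm2, Igtp and Gbp5 carry green ones.

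All signals below are normalized log2 signals, and each change is MC38r minus MC38. A probe was kept if 3 or more of the 6 arrays called it above background, with a detection p under 0.01. Of the 17 member probes 9 were kept, from 7 genes, and a member that is on in 1 line alone can be kept through that line. In MC38r 8 of these 9 rose and 1 fell in limma's test (adjusted p under 0.05), where 55.1% of all 13990 kept probes passed, 28.1% by rising and 27% by falling. Leaving out any 1 MC38r array brought the rising member probes to 5. Gbp2b and Gbp6, detected in MC38r alone, then missed the filter, and the brightest Irgm1 probe no longer passed the test. With the same probes kept, 7 rose. The arrays of the lines did not overlap for any of the 9 probes, which held for 61.5% of all kept probes. Their median change was 2.71 as fitted, and 2.13 with the lower bounds of Gbp2b and Gbp6, against 0.03 for all kept probes either way, and 5 of the 9 rose by a fitted log2 change of 2 or more, as 2.87% of kept probes did.

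**Figure D2:**
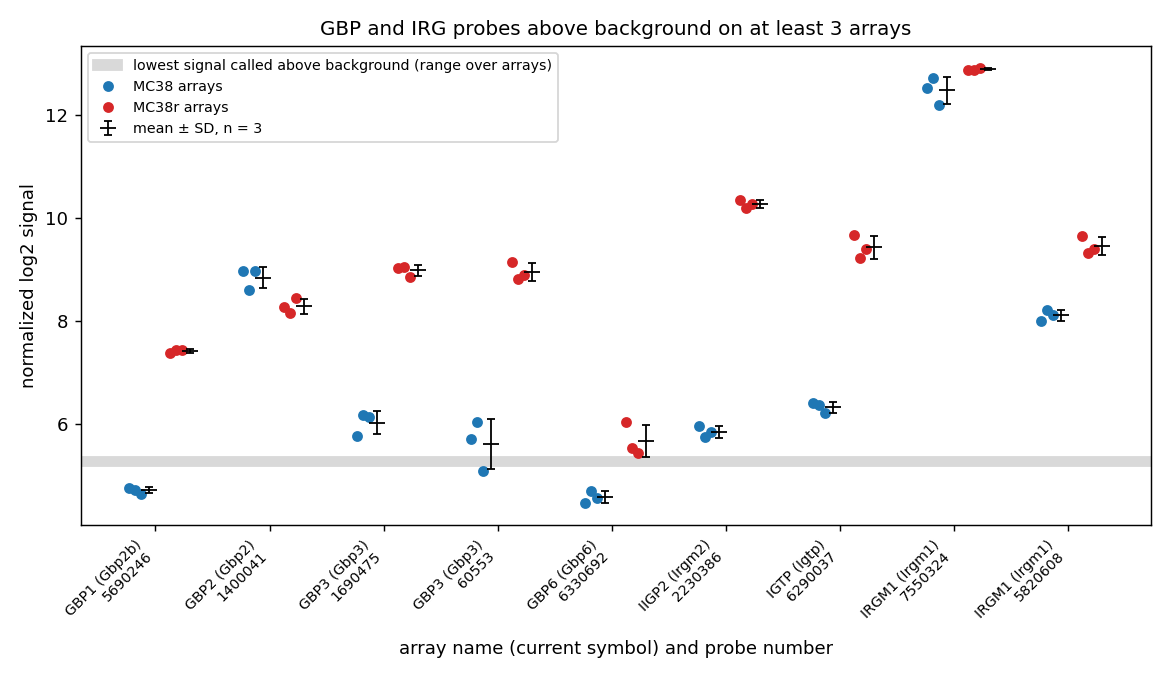
Normalized log2 signal of the 9 kept GBP and IRG probes on each array, with the mean ± SD over the 3 arrays of a line beside the points. Irgm2 and Igtp lie near the background band in MC38 and above 9 in MC38r, whereas Gbp2 is lower in MC38r and the bright Irgm1 probe is above 12 in both lines.

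Among the IRG regulators, Irgm2 showed the largest change of the member probes detected in both lines. Its probe read 5.97, 5.74 and 5.85 on the MC38 arrays and 10.35, 10.19 and 10.27 on the MC38r arrays. All 3 MC38 arrays were low but above background, and all 3 MC38r arrays were high. The change was 4.42 ± 0.13 (SE, n = 3 per line), a 21.4-fold rise (adjusted p = 1.1e-08), and it ranked 40 by size of fitted rise among the kept probes.

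Igtp, the neighbour of Irgm2 on chromosome 11, moved in the same direction. The MC38 arrays gave 6.40, 6.37 and 6.21 and the MC38r arrays 9.67, 9.22 and 9.39, with a wide gap between the lines. The rise was 8.59-fold (3.10 ± 0.15, SE, adjusted p = 2.6e-07).

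Irgm1, which holds the other IRG proteins inactive and is also needed for autophagy, was read by 3 probes that differed in brightness and in change. A probe of middle brightness (5820608) read 8.0, 8.21 and 8.12 in MC38 and 9.65, 9.32 and 9.40 in MC38r, a 2.55-fold rise (1.35 ± 0.14, SE, adjusted p = 4.1e-05). The brightest (7550324) read 12.51, 12.72 and 12.19 in MC38 and 12.87, 12.88 and 12.91 in MC38r. Its change of 0.41 ± 0.16 (SE) lay at the threshold (adjusted p = 0.048), and did not pass in 14 of 24 alternatives, among them a replicate block (adjusted p = 0.086) and the omission of MC38 replicate 3 (0.27, adjusted p = 0.17). The dimmest (7380221) was above background on 1 MC38r array and was not kept. The signal of the first minus that of the brightest went from -4.36 ± 0.26 (SD) in MC38 to -3.43 ± 0.18 in MC38r, a change of 0.94 (two-sided exact permutation p = 0.1, the smallest that 3 against 3 arrays allow).

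Gbp3 rose on both of its probes. One (1690475) read 5.77, 6.18 and 6.14 in MC38 and 9.02, 9.05 and 8.86 in MC38r, a 7.73-fold rise (2.95 ± 0.15, SE, adjusted p = 3.6e-07). The other (60553) read 5.71, 6.05 and 5.09 in MC38, below background on the last of these, and 9.15, 8.82 and 8.89 in MC38r, a rise of 10.1-fold as fitted (3.34 ± 0.23, SE, adjusted p = 2.4e-06). Both probes separated the lines by more than the spread of either. Their changes differed by 0.39 (two-sided exact permutation p = 0.4).

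Gbp2b, the GBP1 of the array, went from background in MC38 to a clear signal in MC38r. It read 4.76, 4.72 and 4.65 in MC38, where no array called it above background, and 7.37, 7.44 and 7.44 in MC38r. The fitted change was 2.71 ± 0.12 (SE, adjusted p = 1.5e-07). Against the lowest signal called above background (5.19 to 5.36, depending on the array) MC38r was at least 4.38-fold higher, a bound that was not itself tested. This bound and the other folds given as "at least" hold for an offset of 16, the constant added before the logarithm. Being above background on every MC38r array and on no MC38 array was found for 4.41% of kept probes.

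Gbp6 rose from background to just above it by 1 of its 2 probes (6330692). The signal was 4.48, 4.71 and 4.56 in MC38 and 6.03, 5.54 and 5.45 in MC38r, at least 1.31-fold higher. The fitted change was 1.09 ± 0.17 (SE, adjusted p = 0.00059), and the bound itself was not tested. Its other probe (5420170) was not above background on any array, with means of 4.58 ± 0.11 (SD) in MC38 and 4.91 ± 0.18 in MC38r.

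Gbp2, which targets vacuoles and bacteria together with the other guanylate-binding proteins and lies beside Gbp2b, was the exception. Its bright probe (1400041) read 8.96, 8.60 and 8.96 in MC38 and 8.26, 8.15 and 8.44 in MC38r. The lines did not overlap, and the fall was 1.47-fold (-0.55 ± 0.15, SE, adjusted p = 0.012). It did not pass without MC38 replicate 1, with a change of -0.49 (adjusted p = 0.053). Nor did it pass once MC38r replicate 2 was left out, with the same change (adjusted p = 0.055). The other probes of Gbp2 (6860600 and 2100068) stayed below background throughout.

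**Figure D3:**
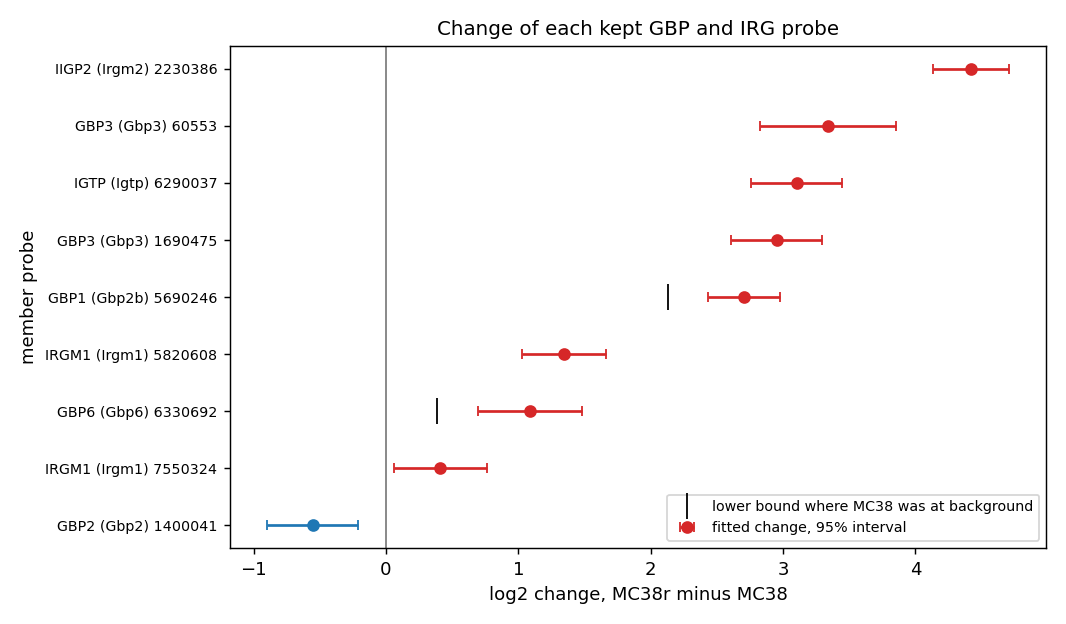
Fitted log2 change (MC38r minus MC38) of each kept member probe with its 95% interval from limma. Black ticks give the lower bound for GBP1 and GBP6, whose MC38 signals were at background. All but the Gbp2 probe lie above 0, and the bright Irgm1 probe is nearest to 0 among those that rose.

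The size of these rises depends on that constant. With an offset of 50 in place of 16 the change of Irgm2 was 3.79, that of Igtp 2.66 and those of Gbp3 2.44 and 2.66. The bound became at least 2.81-fold for Gbp2b and at least 1.17-fold for Gbp6, and each of these probes still passed. In the authors' deposited table, which works on gene means and does not name its test, the ratio of MC38r over MC38 was 16.5 for IIGP2 (adjusted p = 0.0385), 7.26 for IGTP (adjusted p = 0.1055), 6.88 for GBP3 (adjusted p = 0.0409), 4.69 for GBP1 (adjusted p = 0.0119), 1.63 for GBP6 (adjusted p = 0.0469) and 0.736 for GBP2 (adjusted p = 0.1849).

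The remaining 3 members, Gbp4, Gbp5 and Iigp1, had no kept probe. Gbp5, which promotes inflammasome assembly in macrophages, was at the bottom of the scale on both probes, with means of 4.29 ± 0.02 (SD) and 4.26 ± 0.02 in MC38 and 4.28 ± 0.05 and 4.28 ± 0.03 in MC38r. Gbp4 read 4.33, 4.50 and 4.46 in MC38 and 4.54, 4.54 and 4.56 in MC38r. The effector Iigp1, on chromosome 18, read 4.34, 4.37 and 4.42 in MC38 and 4.54, 4.64 and 4.48 in MC38r. For Gbp4 and Iigp1 the MC38r arrays were all higher than the MC38 arrays, but no array of either line called them above background, so no fold is given. The authors' deposited table lists IIGP1 with a ratio of 1.36 (unadjusted p = 0.0223, adjusted p = 0.1564). Of the 17 member probes 7 were above background on no array.

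**Figure D4:**
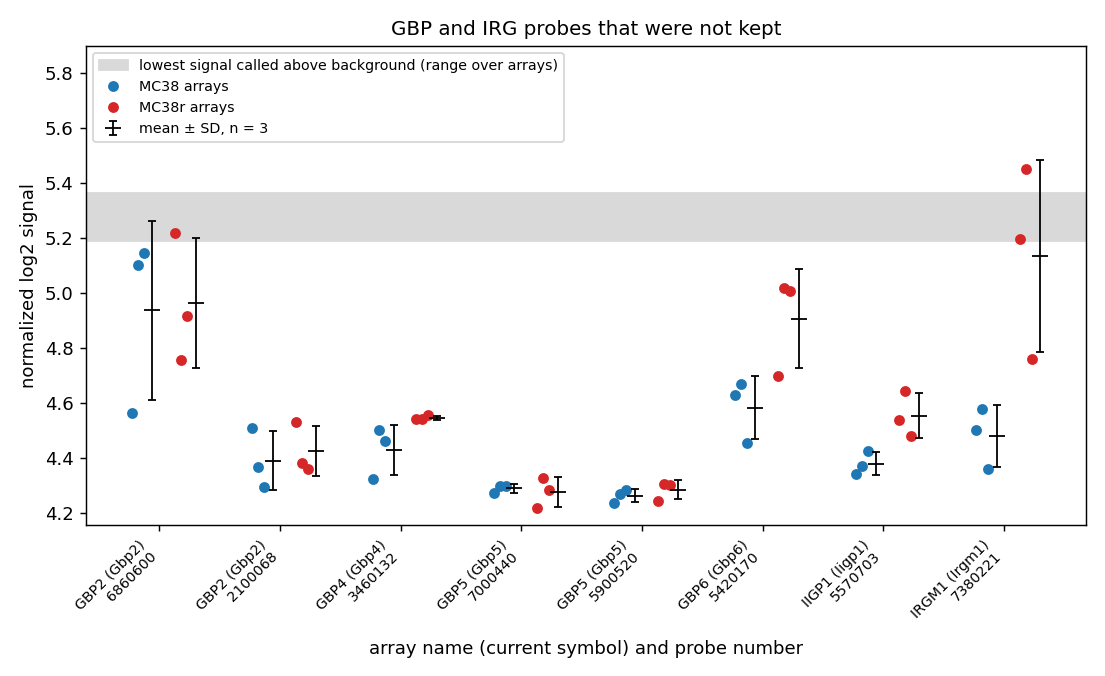
Normalized log2 signal of the 8 member probes that were not kept, by array, with each line's mean ± SD (n = 3). The grey band is the lowest signal called above background, and a single array of the dimmest Irgm1 probe was called above background.

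Related genes, and members listed under older names, were read by 22 further probes, of which 3 were kept. Gm4951, an IRG gene also named Ifgga2, read 4.49, 4.42 and 4.38 in MC38 and 7.37, 7.14 and 7.22 in MC38r by 1 of its 2 probes. This puts MC38r at least 3.89-fold higher, with a fitted change of 2.81 ± 0.13 (SE, adjusted p = 1.6e-07). Gvin1, a very large interferon-inducible GTPase, read 4.59, 4.51 and 4.48 in MC38 and 7.75, 8.55 and 7.86 in MC38r by 1 of its 3 probes. MC38r was at least 6.82-fold higher, with a fitted change of 3.53 ± 0.20 (SE, adjusted p = 8.0e-07). By these probes both went from background on all MC38 arrays to a clear signal on all MC38r arrays. The authors' deposited table, on gene means and with its test not named, gives lower ratios of MC38r over MC38. They were 3.03 for Gm4951, there EG240327 (adjusted p = 0.0713), and 3.71 for GVIN1 (adjusted p = 0.2209). Irgq, a more distant relative of the IRG genes, had on the kept one of its 4 probes means of 6.30 ± 0.25 (SD) and 6.32 ± 0.29 in the sensitive and resistant line (change 0.02 ± 0.19, SE, adjusted p = 0.94). Of its other probes 1 was above background on 2 MC38r arrays and no MC38 array, and 2 on none.

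The other effectors gave no signal above background on any array: TGTP on both probes, IRGB10 on its probe, and Iigp1 also on the probes listed under 2 older names. Gbp8, Gbp10, Gbp11 and Gm5431 were not above background on any array either, nor were the probe listed as MPA2L, an older name of Gbp6, and that named IIGP-PENDING. IRGC1 was above background on 1 MC38 array. In MC38r, then, the 3 IRG regulators and Gm4951 were above background on all arrays by at least 1 probe, and Iigp1, TGTP and IRGB10 on none.

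**Figure D5:**
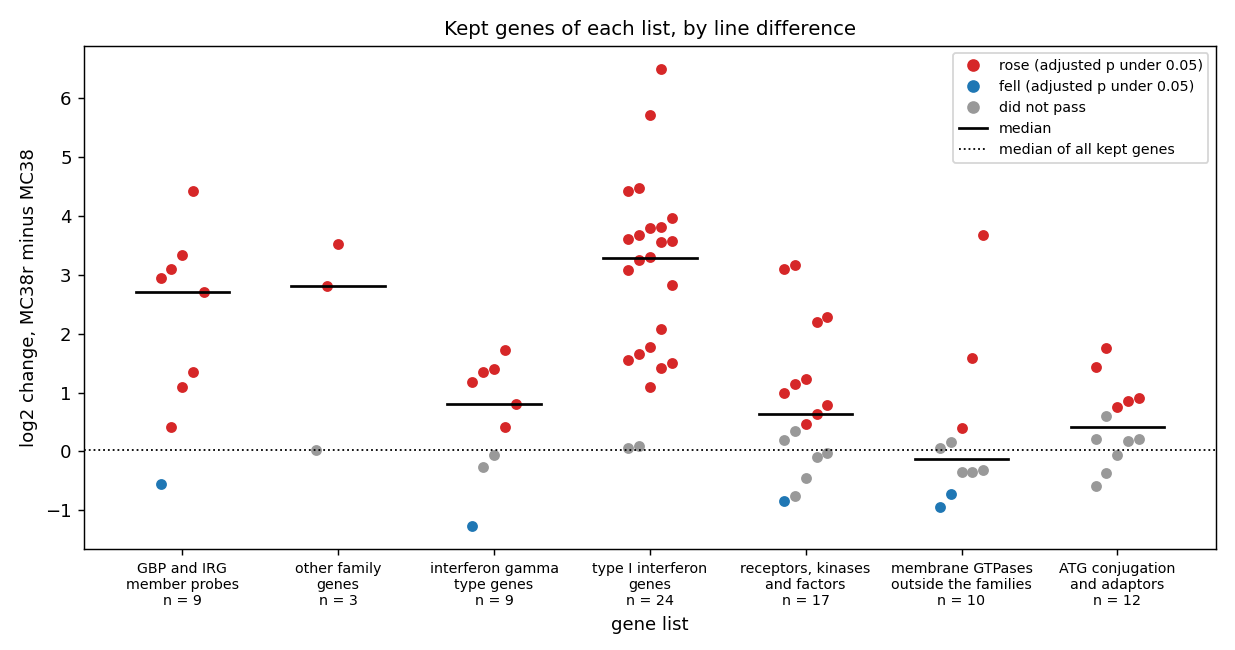
Fitted log2 change (MC38r minus MC38) of kept member probes and of kept genes in 6 lists, 1 point each, with the list median as a bar and the median of all kept genes dotted. Type I interferon genes lie mostly above 1, with 2 near 0, and interferon gamma type genes lie between -1.28 and 1.73.

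To place the families between the interferon responses, genes known chiefly as targets of interferon gamma and genes known chiefly as targets of type I interferon were listed, each gene by its brightest kept probe. Across all 9811 genes so represented 28.6% rose and 27.4% fell, with a median change of 0.03. Of these genes 419 were above background on all MC38r and no MC38 arrays, and 447 the reverse. Many genes answer both interferons, so the division is approximate. Of 31 type I genes on the array 24 were kept, and of these 22 rose, none fell and 2 did not pass. Their median change was 3.28 as fitted and 2.86 when bounds replaced the fitted values of genes at background in 1 line. Of the 24, 9 were kept through MC38r alone, so their rises are not independent of the filter. Usp18, which removes ISG15 from proteins, changed by 6.50, and the antiviral synthetase gene Oas1g by 5.71. The synthetase gene Oas2 rose by at least 15.3-fold and Oasl2 by 4.43 on the log2 scale, while Zbp1 (0.06) and Ifit2 (0.09) did not pass. Of the 7 that were not kept, named after their values were seen, Ifit1, Mx1, Ifih1, Ifi44, Trim30a and Herc6 were at background on every array, and Oas1a was detected on 2 MC38r arrays.

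Of 23 interferon gamma type genes on the array 9 were kept, and of these 6 rose, 1 fell and 2 did not pass. Their median change was 0.81 as fitted and 0.34 with bounds. Of the 9, 4 that rose were kept through MC38r alone, and the 1 that fell through MC38 alone. Tap1, which pumps peptides into the endoplasmic reticulum, rose by at least 2.23-fold, the class I regulator Nlrc5 by at least 2.50-fold and the checkpoint ligand Cd274 by 1.35 on the log2 scale. The other 3 that rose, named after their values were seen, were the immunoproteasome subunit Psmb8, from 10.27 to 11.45, Batf2 and H2-DMa. Batf2 rose by at least 1.14-fold. H2-DMa, near background with a mean of 5.63 in MC38r, rose by at least 1.27-fold. Its fitted change of 0.42 passed narrowly (adjusted p = 0.045). Psmb9, another such subunit, went the other way, from 6.34 to background, a fall of at least 2.14-fold. Irf1, the transcription factor that interferon gamma induces, had a mean signal of 10.26 in MC38 against 10.00 in MC38r, a change of -0.26 (adjusted p = 0.37), and Psmb10 changed by -0.07 (adjusted p = 0.80). Neither passed. The following were named after their values were seen: the class II regulator Ciita, the class II chains H2-Aa, H2-Ab1 and H2-Eb1, the chemokine Cxcl9, the tryptophan-degrading enzyme Ido1, Nos2, Irf8 and Socs1 were at background throughout, and Cd74 exceeded it on 1 MC38r array. With any 1 MC38r array left out, 2 interferon gamma type and 13 type I genes rose under the same filter, and 5 to 6 and 22 rose on the same probes. The difference between both lists was not tested.

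Receptors, kinases and factors of interferon signalling were measured in 17 of 19 cases, of which 10 rose, 1 fell and 6 did not pass (median 0.63). Irf9 went from 6.20 to 9.30, a rise of 3.11. Stat2, its partner in the type I complex, rose by at least 3.29-fold, and the phosphatase gene Ptpn6 by at least 6.02-fold. Ifnar2, a chain of the type I receptor (-0.03), and Ptpn11 (-0.10) did not pass. The interferon gamma receptor chains, named after their values were seen, did not pass either: Ifngr1 changed by -0.45 (adjusted p = 0.077) and Ifngr2 by 0.34 (adjusted p = 0.20).

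Transcripts of interferons themselves were at or near background. Ifng, Ifnb1, Ifna2, Ifna4, Ifnk and Ifnl3 and the cytokines Il12a, Il12b and Il27 were not above background on any array. Ifne was above background on 1 MC38 array and Il18 on 1 array of each line. Ifna1, above background on 2 MC38 arrays and 1 MC38r array, changed by -0.23 (adjusted p = 0.39).

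Partners of the GTPases were listed as well, and their counts stand beside the 28.6% of all 9811 genes that rose and the 27.4% that fell. Of 12 measured genes of ATG conjugation, the machinery that IRG and GBP proteins need to reach vacuoles, 5 rose, none fell and 7 did not pass (median 0.41). The rises were led by Atg12 (1.75), Map1lc3a (1.43), Atg10 (0.92) and the adaptor Sqstm1 (0.86), while Atg5 (-0.07) and Map1lc3b (0.17) did not pass. In the inflammasome list, 4 of 9 genes on the array were measured: Casp4 rose by 1.87, Casp1 by 1.75 and Gsdmd by 0.35, and Aim2, which senses DNA, fell by at least 1.26-fold to background. The next list held 6 genes of the prenylation pathway, which gives some guanylate-binding proteins their lipid anchors. Icmt fell from 8.28 to 5.59, and Rce1, named after its value was seen, fell by 0.44. Zmpste24 (0.84), Pggt1b (0.82) and Fnta (0.82) rose, and Fntb (-0.48) did not pass. Of 10 measured membrane GTPases outside the families, 3 rose, 2 fell and 5 did not pass (median -0.13). There the interferon-inducible Mx2 rose by at least 7.45-fold and Ehd4 by 1.59, Ehd1 (-0.95) and Mfn1 (-0.73) fell, and Atl2 (0.06) and Atl3 (0.16) did not pass.

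For the member probes with the 3 largest fitted changes, the most alike kept probes were found by the root mean square difference of mean-centred log2 signals over the 6 arrays. Nearest to Irgm2 were Oasl2 (0.06), the stress-induced gene Nupr1 (0.10) and Csprs (0.11). For the Gbp3 probe 60553 they were Cd276 (0.12), E430033B07RIK (0.20) and a dimmer probe of Oasl2 (0.21). Igtp was closest to the transporter gene Slc16a13 (0.07), to that Oasl2 probe (0.07) and to the phosphatase gene Ptpn22 (0.07). With 2 lines this measure reflects mainly the size of the line difference.

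Between 28.3% and 30.5% of probes were above background on an array, and 20 to 66 beads stood behind each member value. The arrays lay on 1 chip, MC38 on sections A to C and MC38r on D to F, so that section and line cannot be told apart. Housekeeping control signals were 12183 ± 654 (SD, n = 3) in MC38 and 10450 ± 205 in MC38r, and their part in the changes was not tested. Markers of cell types, named after their values were seen, were checked too. Of 10 colon epithelial markers none was above background on all MC38 arrays, Cdx2 and Lgals4 were on all MC38r arrays, and Epcam and Cdh1 were on no array. Of 12 macrophage markers Cd14 rose from 7.28 to 7.71, Cd68 fell by 0.64 on the log2 scale, Aif1 was detected on 2 MC38r arrays, and the other 9, Ptprc, Adgre1, Itgam and Csf1r among them, were detected on no array. The summed linear signal of the 2 kept genes, Cd14 and Cd68, was 198 to 230 in MC38 and 242 to 248 in MC38r. Of 11 lymphocyte and natural killer cell markers Lck rose by at least 1.24-fold, Prf1 stood at 7.73 and 7.75, and the rest, Cd3e included, were detected on no array, for a summed signal of 219 to 257 and 263 to 266. Of 6 endothelial markers Eng fell by at least 1.38-fold to background, Kdr was detected on 1 MC38 array and the other 4 on none. Eng, the only one kept, had a linear signal of 46.2 to 63.8 in MC38 and 21.2 to 25.8 in MC38r. Of 7 fibroblast markers Pdgfra (1.09) and Dcn (0.82) rose, Col1a2 (-0.97) and Pdgfrb (at least 1.27-fold) fell, and Col1a1 (-0.19) did not pass. Thy1 and Lum were detected on no array. The 5 kept genes summed to 426 to 460 in MC38 and 576 to 667 in MC38r. The part of these lists in the changes of the GTPases was not tested.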

How the data were processed

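The data are 3 bead arrays each of MC38 and MC38r total RNA. Nothing in the labels tells whether the replicates were separate cultures, and p-values therefore measure a spread that may be technical. The deposited probe table holds linear intensity values that came out of GenomeStudio 1.9.0 after quantile normalization, per the file headers. Between 35.0% and 35.1% of the values of an array are under 0, so background had been subtracted. The deposited detection score is taken as 1 minus the detection p-value, and the table also gives beads per probe. The deposited comparison of the authors holds a ratio, its log2 value, and an unadjusted and adjusted p-value per gene. The sources used here name no build for the array's annotation, and promoter coordinates are those of RefSeq's table for GRCm38.p6.

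Signals were corrected with normexp (limma 3.58.1, R 4.3.3, offset 16), log2-transformed and quantile-normalized. Probes that 3 or more arrays detected at p under 0.01 were kept and tested with lmFit and eBayes, with line as the only term. Benjamini-Hochberg adjustment ran over all 13990 kept probes, with a threshold of 0.05, and limma's standard errors are given. The fit was tested on simulated data. For a probe above background on no array of 1 line, the fold is "at least", with that line held at the dimmest detected signal of the array. Adjusted p-values belong to the fitted change and not to this bound. Names were matched to RefSeq symbols for 16223 by symbol and 5684 by synonym, and 8947 kept the array name.

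Members and lists were chosen with earlier results of these data known. Named genes are all members and relatives, all listed interferons and, per list, up to 4 called by size and 2 not called with the smallest change. Some listed genes are not reported here. Alternatives covered normalization, background, offset, filter, replicate block, variance model, array weights, moderation, gene-level values and omission of each array.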

Additional observations from a re-analysis of the deposited data

How the results depend on the processing

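Over 206 alternative values of the 9 kept member probes, 188 kept direction and side of the threshold, 18 kept direction and no longer passed, and none reversed. The 18 belong to the bright Irgm1 probe (14 of 24) and to Gbp2 (4 of 24, with adjusted p up to 0.055). Leaving out 1 array gave 5 to 8 rising member probes, 0 to 1 falling, 2 to 5 rising interferon gamma type genes and 13 to 22 rising type I genes, against 8, 1, 6 and 22 with all arrays. The low ends, 5, 2 and 13, came from leaving out any 1 MC38r array. Probes above background in MC38r alone then no longer reached 3 arrays and, among members, the bright Irgm1 probe no longer passed. With the probes of all 6 arrays kept, an alternative chosen after seeing the data, these counts were 7 to 8, 5 to 6 and 22. No member probe fell without MC38 replicate 1 or without MC38r replicate 2, with either filter. The other settings gave 7 to 8 rising and 1 falling member probe, 5 to 6 interferon gamma type and 22 to 23 type I genes. Deviations of samples with the same replicate number correlated at -0.46, -0.44 and 0.30, so the numbers do not pair the arrays. With a replicate block 6887 probes passed, against 7713 without, and 7 member probes rose, the bright Irgm1 probe being lost (adjusted p = 0.086). Background of the arrays limits Gbp4, Gbp5, Iigp1 and the MC38 levels of Gbp2b and Gbp6, for which no level can be given.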
